A study of Mus musculus with 12 samples.

Results

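The Bcl2 family genes described here are 10 of the 35580 genes to which the transcript estimates were summed. They were taken as a named list of pro- and anti-apoptotic family members, by a rule that uses no measured value, although earlier results of these data were known, and comprise *Mcl1*, *Bcl2l1*, *Bcl2*, *Bak1*, *Bok*, *Bcl2l11*, *Bid*, *Bad*, *Bmf* and *Bik*. All 10 passed the filter on low counts and were among the 17424 genes tested. RNA was sequenced from mouse ESCs of the parental R1 line (WT) and of a Cidea -/- line made from it (CIDEA KO), as undifferentiated ESCs in 10% FBS with LIF (0 h) and as spheroids in growth factor-reduced Matrigel in 15% FBS without LIF (24 h and 48 h). The labels describe the spheroids as embedded, and the study's methods describe cultures for molecular work as grown on top of a Matrigel coat. Each of the 6 groups had 2 libraries. All KO libraries came from 1 clone, so that loss of *Cidea* and any other difference of this clone cannot be told apart. The study concerned a protein named for cell death in the forming lumen, and the comparisons below ask how far RNA of the mitochondrial death pathway differed between the genotypes and moved with time.

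Proteins of the Bcl2 family decide whether the outer mitochondrial membrane is opened during apoptosis. Effectors such as Bak and Bok can form the pores. Anti-apoptotic members such as Mcl-1, Bcl-xL and Bcl-2 can hold effectors such as Bak in check. BH3-only proteins such as Bim and Bmf relay stress by binding to other members through a short helix, the BH3 domain. Pluripotent cells are known to be readily driven into apoptosis, and much of the control lies in protein binding, turnover and location, which RNA levels do not show.

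The BH3 helix is recognised by a leucine followed, after a spacer, by a small residue and an aspartate. The coding sequences of all 10 genes held exactly 1 run of 8 codons of this kind in their leading protein-coding transcript. The pattern is loose, since 33.9% of the longest coding sequences of all coding genes (7316 of 21584) held it too, and a match is a description of the letters only. The 24 bases are shown for the 6 genes whose RNA changed in at least 1 comparison, so that the shared core can be seen across the classes. They come from GENCODE release M21 transcripts (GRCm38), read 5′ to 3′ on the coding strand, with the leucine codon and the codons of the small residue and the aspartate in capitals.
Mcl1: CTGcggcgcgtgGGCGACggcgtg
Bcl2l1: CTGagagaggcaGGCGATgagttt
Bak1: CTTgctctcatcGGAGATgatatt
Bok: CTGctgcgcttgGGAGATgagctg
Bcl2l11: CTGcggcggatcGGAGACgagttc
Bmf: CTTcagtgtattGCAGACcagttc
These runs lie in coding exons, in exon 1 of *Mcl1* (chr3:95659436-95659459, plus strand), exon 2 of *Bcl2l1* (chr2:152829700-152829723, minus strand), exon 4 of *Bak1* (chr17:27022534-27022557, minus strand), exon 3 of *Bcl2l11* (chr2:128147150-128147173, plus strand) and exon 4 of *Bmf* (chr2:118545103-118545126, minus strand). In *Bok* the run spans the junction of exons 2 and 3 (chr1:93686657-93689167, plus strand, intron included). The small residue is glycine in every run shown except that of *Bmf*, where the codon GCA encodes alanine.

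Depth was 28.998 to 38.5 M estimated counts per library, and 3 counts, taken as the floor, corresponded to 0.0779 to 0.103 counts per M counts (CPM), a limit that covers counting error only. KO replicate 1 at 24 h stood apart, with 15485 genes detected at equal depth while the other libraries had 17623 to 19687. *Cidea* checked the labels, with 89 and 67 counts in WT at 0 h, 117 and 46 at 24 h and 20 and 21 at 48 h, and 0 counts in every KO library. Against the floor in 1 library, *Cidea* was at least 24.6-fold lower at 0 h, 26.7-fold lower at 24 h and 6.15-fold lower at 48 h in KO. All groups expressed the pluripotency markers (7 of 7, summed 2142 to 4018 TPM), which were lower at 48 h than at 0 h for 6 of 7 genes in both genotypes, and the primed epiblast markers rose (5 of 5 in both genotypes, from 94.9 to 131 TPM summed at 0 h to 934 to 1009 at 48 h). Markers of fibroblasts (6 genes, summed 8.63 to 29.1 TPM, *Postn* at 0), primitive endoderm (6 genes, 7.34 to 15.6 TPM), trophectoderm (5 genes, 13.7 to 27.2 TPM) and mesoderm (4 genes, 1.20 to 4.68 TPM) each summed to less than 30 TPM in every library. Some of them moved with time. *Dab2*, of the endoderm list, rose from 0 h to 48 h by 1.81 in WT and 2.03 in KO on the log2 scale (adjusted p = 9.86e-05 and 3.03e-05). The other 5 genes of that list were not called, and its median log2 fold change was -0.70 in WT and -0.74 in KO. Of the trophectoderm list *Eomes* rose (1.39 and 1.52, adjusted p = 0.000111 and 3.7e-05) and *Tfap2c* fell (log2FC -2.19 and -1.72, adjusted p = 4.52e-08 and 9.92e-07), with *Cdx2* rising in KO (3.78, adjusted p = 0.0226). The *Cdx2* value is uncertain, since its KO mean was 0.105 CPM at 0 h, close to the floor, and 1.49 CPM at 48 h. The fibroblast marker *Thy1* was lower in KO over all times (log2FC -0.79, adjusted p = 0.00225). In these bulk samples a lower share of cells of a type and less RNA per cell cannot be told apart.

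Among the 10 genes, 1 anti-apoptotic gene dominated. On the TPM scale, which is scaled for transcript length and is therefore used between genes, *Mcl1*, encoding a short-lived protein required in early embryos, made up 60.2% of the summed TPM of the 10 genes on average, and between 54.9% and 69.3% in single libraries. It ranked first in 12 of 12 libraries. *Bak1* followed with a median of 45.5 TPM (32.2 to 52.9), then *Bcl2l1* with 32.2 (21.8 to 53.4) and *Bid* with 29.9 (25.5 to 35.1), whose ranges overlapped. Lower by median, *Bmf* (8.67 to 34.9 TPM), *Bok* (6.75 to 19.0), *Bcl2l11* (6.34 to 16.6) and *Bad* (6.29 to 17.1) overlapped in turn. Neither set of neighbours was separated by more than the spread over libraries. *Bmf* also reached into the set above, ranking 3 or 4 of the 10 in every 24 h library. *Bik* (1.51 to 6.26 TPM) and *Bcl2* (0.0530 to 0.427 TPM) were the lowest of the 10 genes in every library, with *Bcl2* last. The order does not cover the whole family. The effector *Bax*, outside the 10, had 343 to 423 TPM, against 208 to 357 for *Mcl1*.

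**Figure D1:**
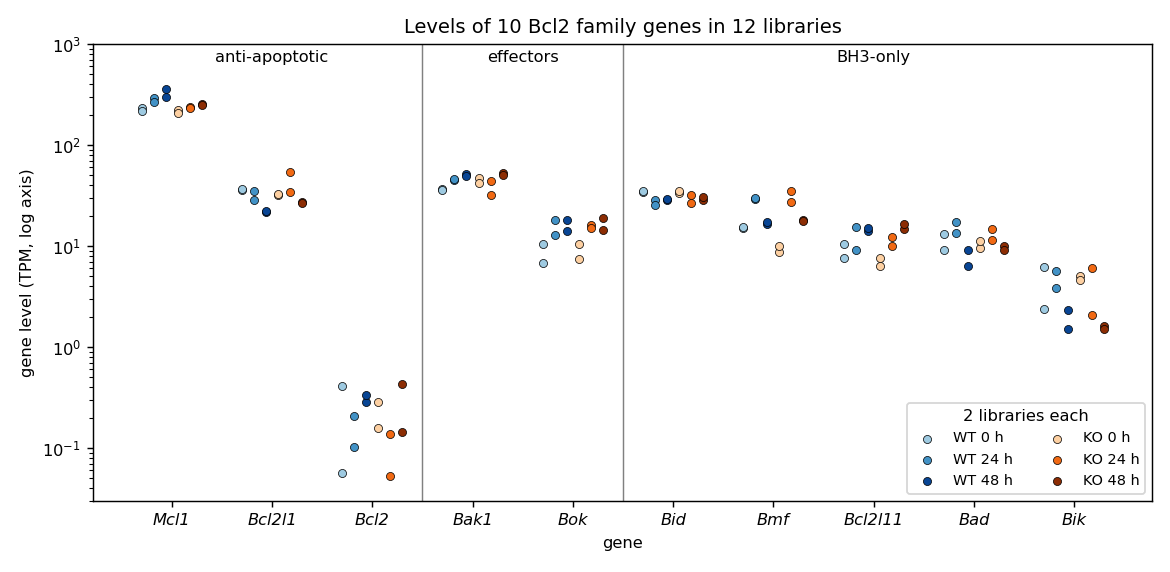
Level of each of the 10 genes in each library, in TPM on a log axis, by class, with 2 points per group coloured by genotype and time. *Mcl1* lies above all other genes in every library, *Bcl2* lies below 1 TPM throughout, and *Bmf* and *Bik* vary most among the genes above 1 TPM, by 4.02-fold and 4.14-fold between their lowest and highest library.

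From 0 h to 48 h, RNA of the pore-forming effector *Bok* and of *Bcl2l11*, encoding Bim, rose in both genotypes, as did *Mcl1*. *Bak1* was called higher and *Bcl2l1*, encoding Bcl-xL, lower in WT only, and *Bmf* was called higher in KO only. These time courses were not shown to differ between the genotypes, since 0 of the 10 were called for a change of the genotype difference at 48 h. In both genotypes both 48 h libraries of *Bak1* and of *Bmf* lay above both 0 h libraries. The share of all genes whose libraries separate in this way, here and in the paragraphs below, is not given. In WT, 4 of the 10 genes were called higher, where 11.1% of all genes tested were, and 1 was called lower, where 12.5% were. In KO, 4 were called higher, beside 12.1% of all genes, and 0 lower, beside 12.8%. A gene was called at an adjusted p under 0.05 (edgeR's quasi-likelihood test, Benjamini-Hochberg over all genes tested), and log2 fold changes (log2FC) carry their standard error (SE). The median log2FC of the 10 genes was 0.10 in WT and 0.16 in KO, and that of all genes 0.02 and 0.01. At 24 h against 0 h, 3 of the 10 were higher in WT (7.54% of all genes) and 4 in KO (9.24%), with 0 lower in either (7.47% and 9.33% of all genes). Between 24 h and 48 h, WT had 1 of 10 higher (3.28% of all genes) and 2 lower (4.86%), and KO had 2 higher (4.57%) and 2 lower (5.37%). Of 25 called values over all comparisons, 16 were not called with average transcript lengths as offsets and 16 were not called by limma on log2(TPM + 1).

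**Figure D2:**
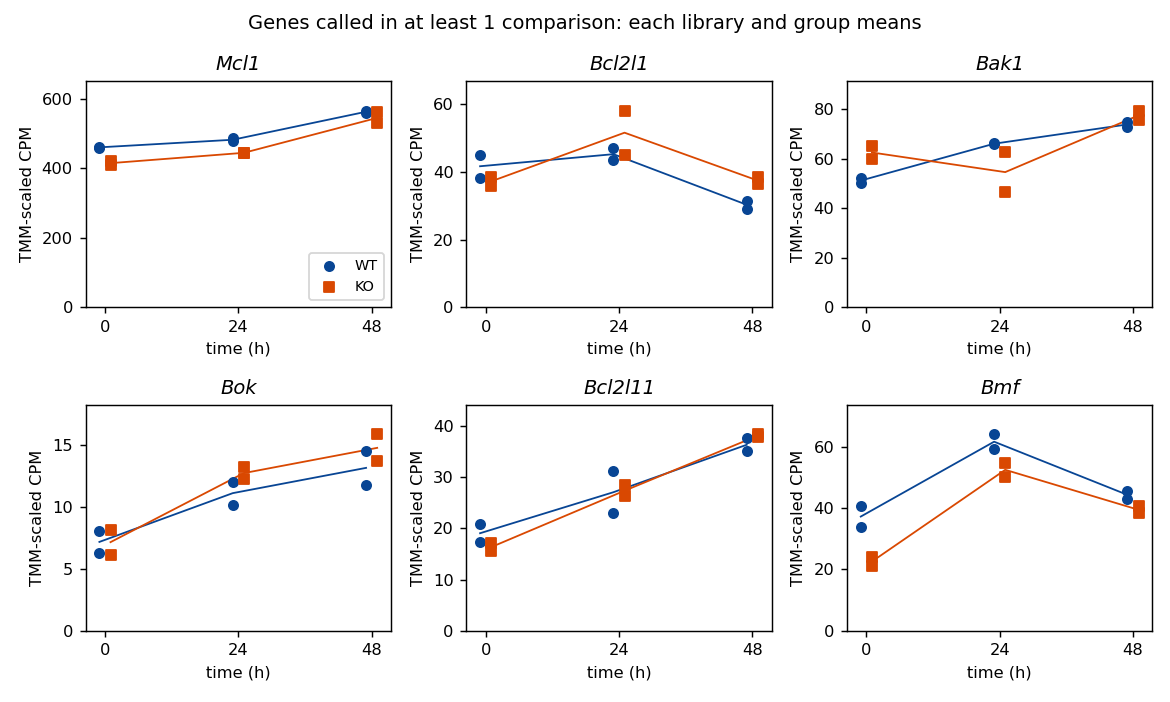
Normalised counts (CPM scaled by TMM factors, linear axes from 0) of the 6 genes called in at least 1 comparison, with a point for each library, lines through the group means, circles for WT and squares for KO. *Mcl1*, *Bok* and *Bcl2l11* are higher at 48 h than at 0 h in both genotypes, *Bmf* is highest at 24 h, and the KO squares of *Bmf* lie below the WT circles at each time.

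Among the anti-apoptotic genes, *Mcl1* had 461 and 459.8 CPM in WT at 0 h, 478 and 487 at 24 h and 559.5 and 567 at 48 h. In KO it had 409 and 421 CPM at 0 h, 445 and 444 at 24 h and 561 and 529 at 48 h. Every 48 h library lay above every earlier library of its genotype. The rise from 0 h to 48 h was 0.29 in WT (SE 0.06, adjusted p = 0.00126) and 0.39 in KO (SE 0.06, adjusted p = 4.86e-05) on the log2 scale, the latter no longer called by limma on log2(TPM + 1) (0.24, adjusted p = 0.0983). From 24 h to 48 h *Mcl1* rose by 0.22 in WT (adjusted p = 0.0247) and 0.29 in KO (adjusted p = 0.00271). The WT call of that step was lost without either 24 h library (adjusted p = 0.259 without replicate 1 and 0.114 without replicate 2), without either 48 h library (0.117 and 0.142) and without either KO 0 h library (0.0502 and 0.0507), and the KO call without KO replicate 1 at 48 h (0.0815).

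The transcript estimates of *Mcl1* differed in their spread. Its long transcript, Mcl1-201, was estimated at 167 to 231 TPM, and the short Mcl1-202 at 25.6 to 145 TPM. The highest gene total, 357 TPM in WT replicate 2 at 48 h, contained 145 TPM of Mcl1-202, while the highest Mcl1-201 value, 231 TPM, was in KO replicate 1 at 48 h. At 48 h both WT libraries exceeded both KO libraries on the TPM scale (300.3 and 357 against 256 and 251), while they overlapped in CPM. Transcript values are estimates, since reads that fit more than 1 transcript are divided between them.

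*Bcl2l1* had 45.1 and 38.3 CPM in WT at 0 h, 47.0 and 43.5 at 24 h and 31.4 and 29.1 at 48 h. In KO it had 35.9 and 38.5 CPM at 0 h, 58.2 and 45.1 at 24 h and 36.4 and 38.4 at 48 h. In WT the 48 h libraries were the lowest, and in KO the 24 h libraries were the highest while 0 h and 48 h overlapped. Its log2FC from 0 h to 48 h was -0.46 in WT (SE 0.14, adjusted p = 0.0165), a call lost without WT 0 h replicate 1 (adjusted p = 0.186) and without WT 48 h replicate 1 (0.0537) or 2 (0.133). In KO the difference was 0.01 (95% interval -0.27 to 0.29). In TPM, however, *Bcl2l1* was lower in both KO 48 h libraries (27.2 and 26.4) than in both KO 0 h libraries (31.8 and 32.6). From 24 h to 48 h it fell by 0.58 in WT (SE 0.13, adjusted p = 0.00915), which was lost without WT 24 h replicate 1 (0.106) or WT 48 h replicate 2 (0.0913).

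In KO *Bcl2l1* rose by 0.47 from 0 h to 24 h (SE 0.13, adjusted p = 0.0173) and fell by 0.46 from 24 h to 48 h (SE 0.13, adjusted p = 0.0313). Both calls were lost without the library with few detected genes, KO replicate 1 at 24 h. Without it, *Bcl2l1* was higher by 0.27 at 24 h than at 0 h (adjusted p = 0.272) and the log2FC from 24 h to 48 h was -0.27 (adjusted p = 0.346). The rise was also lost without KO 0 h replicate 1 (0.158) or 2 (0.0641), and the fall without KO 48 h replicate 1 (0.224) or 2 (0.0891). That library held 25.2 TPM of the noncoding Bcl2l1-209, an annotated transcript estimated at 0 TPM in its replicate. The protein-coding Bcl2l1-201 was at 28.2 and 25.99 TPM in the KO 24 h libraries, against 14.3 and 17.7 at 0 h and 14.6 and 19.9 at 48 h.

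*Bcl2*, the founding anti-apoptotic gene, was near the limit of detection in all groups. It had 4 to 52 counts per library, and the widest pair was WT at 0 h with 52 and 7 counts. It was called in no comparison, and intervals such as -2.75 to 2.66 for its log2FC from 0 h to 48 h in WT left changes of several-fold in either direction undetectable at this depth.

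Of the effectors, *Bak1* had 52.0 and 50.4 CPM in WT at 0 h, 65.9 and 66.4 at 24 h and 74.9 and 72.9 at 48 h. In KO it had 65.4 and 59.8 CPM at 0 h, 46.6 and 62.6 at 24 h and 79.6 and 75.6 at 48 h. The WT groups did not overlap and stood in order of time, whereas the lowest value of the KO libraries was again KO 24 h replicate 1. In WT *Bak1* rose by 0.53 from 0 h to 48 h (SE 0.12, adjusted p = 0.00242; 0.0549 with average transcript lengths as offsets) and by 0.37 from 0 h to 24 h (SE 0.12, adjusted p = 0.0406). The latter was lost without WT 0 h replicate 1 (0.107) or 2 (0.163), WT 24 h replicate 1 (0.146) or 2 (0.143) and WT 48 h replicate 1 (0.05001).

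In KO the log2FC of *Bak1* from 0 h to 48 h was 0.31 (SE 0.12, adjusted p = 0.0626). In edgeR it passed the threshold with no filter on low counts (adjusted p = 0.0346) and with at least 10 counts in every library (0.0361). It also passed with only the groups compared (0.0132). Without KO 24 h replicate 1 or 2 the log2FC of *Bak1* was 0.30 or 0.31. Its rise of 0.51 from 24 h to 48 h in KO (SE 0.12, adjusted p = 0.00779) was lost without KO 24 h replicate 1 (0.30, adjusted p = 0.127) and without KO 48 h replicate 1 (0.46, adjusted p = 0.0886). Without KO 24 h replicate 2, which leaves the outlying library alone, the log2FC of *Bak1* from 0 h to 24 h in KO was -0.41, against -0.20 with both.

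*Bak1* also differed in its transcripts. Bak1-201, annotated as a target of nonsense-mediated decay, was estimated at 22.6 and 22.5 TPM in WT at 0 h, 11.8 and 13.98 at 24 h and 16.9 and 19.0 at 48 h. The protein-coding Bak1-202 was at 13.9 and 13.3 TPM in WT at 0 h, 33.2 and 31.6 at 24 h and 34.2 and 30.3 at 48 h. Bak1-202 was thus the lower of the pair in both WT libraries at 0 h and the higher in every WT spheroid library. In KO at 0 h the libraries disagreed, with Bak1-202 at 18.3 and 25.1 TPM beside 29.03 and 16.5 TPM of Bak1-201, and Bak1-202 was the higher in the 4 KO spheroid libraries. No test was made of these estimates.

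**Figure D3:**
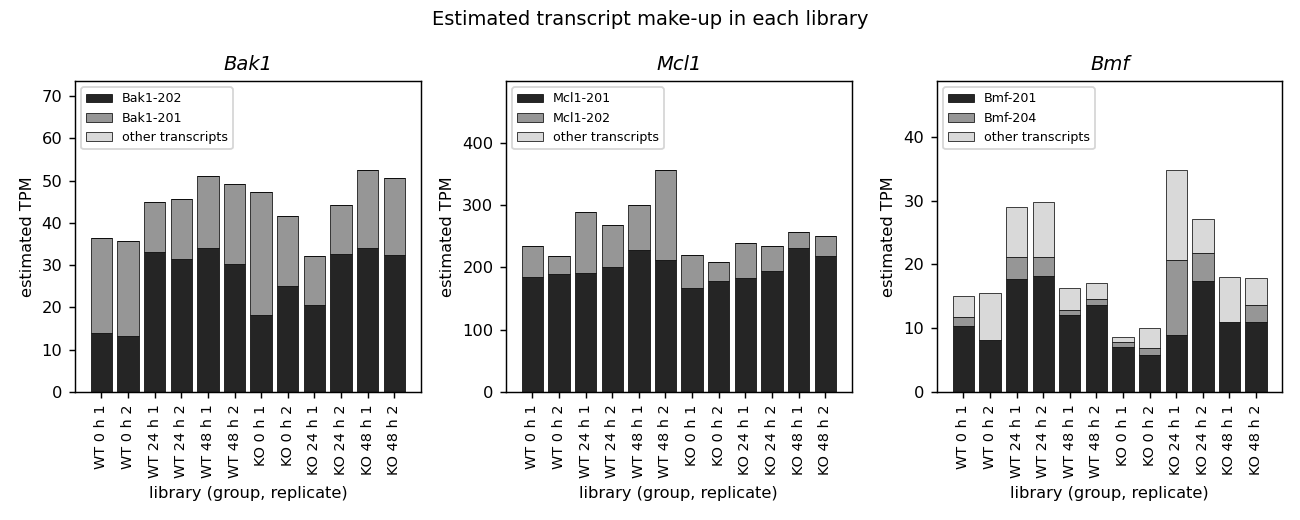
Estimated TPM of the transcripts of *Bak1*, *Mcl1* and *Bmf* in each of the 12 libraries, stacked on linear axes from 0, with the sum of all remaining transcripts in light grey. Bak1-202 grows from 13.9 and 13.3 TPM in WT at 0 h to at least 30.3 TPM in WT spheroids, Mcl1-202 reaches 145 TPM in WT replicate 2 at 48 h, and the *Bmf* bars are tallest in the 24 h spheroids, up to 34.9 TPM in KO replicate 1.

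*Bok*, whose protein can act as an effector and is kept scarce by degradation in many cells, had 8.11 and 6.28 CPM in WT at 0 h, 12.1 and 10.2 at 24 h and 14.6 and 11.8 at 48 h. In KO it had 6.15 and 8.19 CPM at 0 h, 13.2 and 12.3 at 24 h and 13.7 and 15.9 at 48 h. In both genotypes every spheroid library exceeded both 0 h libraries, on 177 to 516 counts per library. From 0 h to 48 h *Bok* rose by 0.87 in WT (SE 0.24, adjusted p = 0.0114) and by 1.04 in KO (SE 0.24, adjusted p = 0.00284). The WT call was lost without WT 0 h replicate 2 (0.122) or WT 48 h replicate 1 (0.131), and the KO call without KO 0 h replicate 1 (0.0826). With average transcript lengths as offsets neither was called (adjusted p = 0.0832 in WT and 0.0632 in KO). From 0 h to 24 h it rose by 0.83 in KO (adjusted p = 0.0196; 0.26 without KO 0 h replicate 1 and 0.0619 without KO 24 h replicate 1), while in WT the log2FC was 0.63 (adjusted p = 0.0906).

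Among the BH3-only genes, *Bcl2l11* moved most evenly. It had 20.8 and 17.4 CPM in WT at 0 h, 23.0 and 31.1 at 24 h and 35.0 and 37.6 at 48 h. In KO it had 15.6 and 17.1 CPM at 0 h, 26.2 and 28.5 at 24 h and 37.8 and 38.4 at 48 h. In each genotype the 3 times did not overlap in CPM and rose in order. In TPM this held in KO only. The WT 24 h libraries (9.19 and 15.5 TPM) overlapped those at 0 h (10.4 and 7.67) and at 48 h (14.2 and 15.1). From 0 h to 48 h the rise was 0.93 in WT (SE 0.16, adjusted p = 0.000206) and 1.22 in KO (SE 0.16, adjusted p = 9.03e-06). With average transcript lengths as offsets the WT value was 0.67 (adjusted p = 0.0925). From 24 h to 48 h the log2FC was 0.42 in WT (adjusted p = 0.116) and 0.48 in KO (adjusted p = 0.0624; 0.0465 without KO 24 h replicate 2).

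At 24 h against 0 h *Bcl2l11* rose by 0.51 in WT (SE 0.16, adjusted p = 0.0376) and by 0.74 in KO (SE 0.16, adjusted p = 0.00254). The WT call was lost without WT 0 h replicate 2 (0.40, adjusted p = 0.26) or WT 24 h replicate 2 (0.27, adjusted p = 0.43), and neither call held once average transcript lengths were offsets (adjusted p = 0.40 in WT and 0.142 in KO). Its main coding transcript, Bcl2l11-205, went from 4.65 and 3.75 TPM at 0 h to 6.14 and 7.62 at 48 h in WT. In KO it went from 2.67 and 3.54 TPM to 6.85 and 7.57.

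*Bmf*, which encodes a BH3-only protein tied to the cytoskeleton and to loss of attachment, was the only one of the 10 genes called between the genotypes. It had 40.7 and 33.7 CPM in WT at 0 h, 64.0 and 59.2 at 24 h and 43.0 and 45.5 at 48 h. In KO it had 24.0 and 21.1 CPM at 0 h, 50.1 and 54.7 at 24 h and 38.3 and 40.6 at 48 h. In both genotypes 24 h was the highest time, and at each time both KO libraries lay below both WT libraries. From 0 h to 24 h *Bmf* rose by 0.73 in WT (SE 0.12, adjusted p = 0.000341) and by 1.22 in KO (SE 0.13, adjusted p = 8.01e-07).

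By 48 h *Bmf* had come down again. From 24 h to 48 h it fell by 0.48 in WT (SE 0.12, adjusted p = 0.0193) and by 0.41 in KO (SE 0.12, adjusted p = 0.0386). The WT call was lost without WT 24 h replicate 1 (0.189) or 2 (0.0538) and without WT 48 h replicate 1 (0.181) or 2 (0.0672). The KO call was lost without KO 24 h replicate 2 (0.0775), KO 48 h replicate 1 (0.263) or 2 (0.0965), or WT 48 h replicate 1 (0.0538). Against 0 h, *Bmf* at 48 h was still higher by 0.80 in KO (SE 0.13, adjusted p = 6.76e-05), and in WT the log2FC was 0.25 (SE 0.12, adjusted p = 0.166).

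*Bid*, which links the death receptor pathway to mitochondria, had 33.4 to 46.0 CPM and was called in no comparison. Its mean was 41.4 CPM at 0 h and 38.3 at 48 h in WT, and 44.9 and 40.4 in KO. In CPM and in TPM both 48 h libraries lay below both 0 h libraries in each genotype. Without KO 24 h replicate 1 it fell from 0 h to 24 h in KO by 0.43 (adjusted p = 0.0436), against -0.19 with that library. *Bad*, which responds to growth factor signalling, had 5.66 to 10.3 CPM with its 2 highest values in WT at 24 h, and was called nowhere. *Bik*, a BH3-only gene of the endoplasmic reticulum, had 23 to 107 counts per library. Its WT values were 3.53 and 1.31 CPM at 0 h, 3.12 and 1.88 at 24 h and 1.26 and 0.646 at 48 h. The KO values were 1.74 and 2.52, 1.55 and 1.06, and 0.903 and 0.832 CPM. In both genotypes the 48 h libraries were below the 0 h libraries, but the log2FC of -1.35 in WT and -1.29 in KO came with SEs of 0.76 and adjusted p = 0.233 and 0.26, so a difference was not detectable with this spread.

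**Figure D4:**
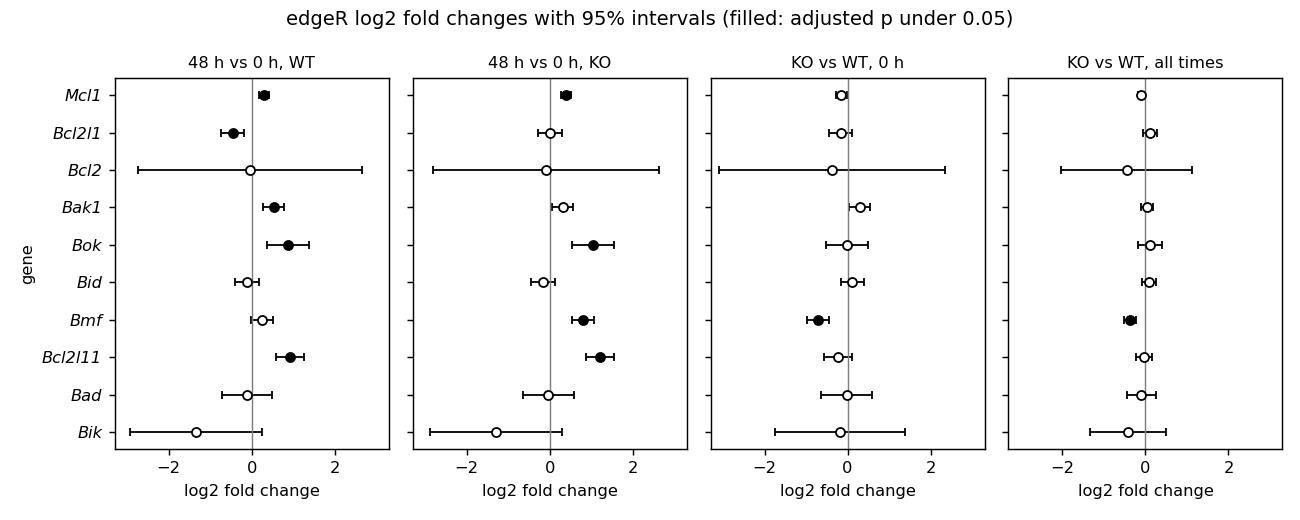
Log2 fold changes of the 10 genes with 95% intervals from edgeR, for 48 h against 0 h in WT and in KO and for KO against WT at 0 h and over all times, with filled points for an adjusted p under 0.05. *Bok* (0.87 and 1.04), *Bcl2l11* (0.93 and 1.22) and *Mcl1* (0.29 and 0.39) are filled in both time panels, *Bmf* alone is filled in the genotype panels (-0.72 and -0.37), and *Bcl2* and *Bik* have the widest intervals.

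Between the genotypes few of these genes differed. At 0 h *Bmf* was called lower in KO, 1 of 10 genes where 0.987% of all genes tested were called lower. At 24 h 0 of 10 were called, beside 1.46% of all genes, with 1 at an unadjusted p under 0.05 in edgeR and 0 called by DESeq2 or limma. At 48 h 0 of 10 were called, beside 0.671% of all genes, with 1 at an unadjusted p under 0.05 and 0 called by DESeq2 or limma. Over the 3 times, *Bmf* was called lower in KO, 1 of 10 genes beside 2.84% of all genes called lower and 2.19% called higher. The median log2FC of the 10 genes over all times was -0.08, and that of all genes was -0.0026.

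*Bmf* RNA in CIDEA KO cells was below WT by 0.72 on the log2 scale at 0 h (SE 0.13, adjusted p = 0.0038), and its log2FC was -0.23 at 24 h (SE 0.12, adjusted p = 0.458) and -0.17 at 48 h (SE 0.12, adjusted p = 0.895). Over all times its log2FC was -0.37 (SE 0.07, adjusted p = 0.00323). The call at 0 h was lost without WT 0 h replicate 1 (-0.57, adjusted p = 0.0908) or KO 0 h replicate 2 (-0.63, adjusted p = 0.125). It was also lost with average transcript lengths as offsets (-0.74, adjusted p = 0.0756), as was the call over all times (-0.19, adjusted p = 0.397). By limma on log2(TPM + 1), *Bmf* was called neither at 0 h (-0.66, adjusted p = 0.206) nor over all times (-0.17, adjusted p = 0.427).

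Markers of cell state differed between the genotypes in the same comparisons. Of 5 primed epiblast markers 2 were lower in KO at 0 h, *Otx2* (log2FC -0.95, adjusted p = 2.59e-05) and *Dnmt3a* (-0.31, adjusted p = 0.0232), and 3 were lower at 24 h and 3 over all times. Their summed level at 0 h was 94.9 to 106 TPM in KO and 127 to 131 TPM in WT. Of 7 pluripotency markers 2 were higher in KO at 0 h, *Klf4* (0.47, adjusted p = 0.00584) and *Zfp42* (0.31, adjusted p = 0.0359), and 2 were higher at 24 h and over all times. At 48 h the summed primed epiblast level was 934 to 947 TPM in KO and 949 to 1009 TPM in WT. The part of cell state in the *Bmf* difference was not tested.

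The scale changed the order of the genotypes for *Bmf*. In TPM it was at 15.1 and 15.5 in WT and 8.67 and 10.0 in KO at 0 h, which again did not overlap. At 24 h it had 28.999 and 29.9 TPM in WT and 34.9 and 27.1 in KO, and at 48 h 16.3 and 17.1 in WT and 18.1 and 17.9 in KO. KO was thus lower at 0 h, overlapping at 24 h and higher at 48 h on this scale, while it was lower at each time in CPM. The leading coding transcript, Bmf-201, was at 10.3 and 8.11 TPM in WT and 7.06 and 5.72 TPM in KO at 0 h. At 48 h it was at 11.996 and 13.7 TPM in WT and 11.04 and 11.02 TPM in KO, while the noncoding Bmf-203 was estimated at 4.19 and 2.13 TPM in the KO libraries and 0 in the WT ones. Other transcripts did not share this pattern, with a mean of 0.95 TPM in WT and 0.47 TPM in KO for Bmf-208 and 1.09 TPM in both for Bmf-205.

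The other 9 genes did not pass the test between the genotypes at any time. The intervals given here are for the average over all times, so they do not bound a difference missed at a single time. For *Bak1*, log2FC values of opposite sign at 0 h and 24 h, given below, offset each other in this average. Each of them lies outside the *Bak1* interval. Over all times *Mcl1* had a log2FC of -0.10 (SE 0.03, interval -0.18 to -0.03, adjusted p = 0.0943). DESeq2 called it lower in KO (-0.11, adjusted p = 0.00602), as did edgeR with average transcript lengths as offsets (-0.24, adjusted p = 0.0311). The interval was -0.05 to 0.27 for *Bcl2l1*, -0.11 to 0.17 for *Bak1*, -0.17 to 0.41 for *Bok*, -0.24 to 0.15 for *Bcl2l11*, -0.08 to 0.25 for *Bid* and -0.45 to 0.25 for *Bad*. For *Bik* (-1.32 to 0.49) and *Bcl2* (-2.03 to 1.12) it was too wide to speak of a level.

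*Bak1* stood on opposite sides at neighbouring times. At 0 h both KO libraries were above both WT libraries (log2FC 0.29, SE 0.12, adjusted p = 0.383). At 24 h both were below (log2FC -0.28, SE 0.12, adjusted p = 0.338). The 24 h value was -0.50 without KO 24 h replicate 2 and -0.08 without KO 24 h replicate 1. The difference between the 24 h and 0 h differences was -0.57 (SE 0.17, adjusted p = 0.812). Without KO 24 h replicate 2 the latter became -0.79, and without KO 24 h replicate 1 it was -0.38. Across the 10 genes, 0 were called for a change of the genotype difference at 24 h, beside 0.0115% of all genes, and 0 at 48 h, beside 0.0402% of all genes. Each had 2 members at an unadjusted p under 0.05 in edgeR and 0 called by DESeq2 or limma, DESeq2 giving no adjusted p for 8 of the 10 in the 48 h test. The *Bmf* difference was smaller by 0.55 at 48 h than at 0 h (SE 0.18, adjusted p = 0.499), so a change of the *Bmf* difference with time was not shown.

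Summed by class, the anti-apoptotic genes held 255 to 271 TPM in WT at 0 h and 322 to 379 TPM at 48 h. The KO sums were 241 to 252 TPM at 0 h and 278 to 284 TPM at 48 h. *Bak1* and *Bok* together held 42.5 to 47.1 TPM at 0 h and 63.8 to 69.3 TPM at 48 h in WT, against 52.1 to 54.7 TPM and 67.4 to 69.7 TPM in KO. The sum of the BH3-only genes among the 10 was highest at 24 h in both genotypes (88.0 to 89.7 TPM in WT and 82.8 to 94.6 in KO). *Bbc3*, *Pmaip1* and *Hrk*, also BH3-only, were left out, as was the effector *Bax*. This peak and the ratio below hold for the listed genes only. *Pmaip1* fell from 27.5 and 32.1 TPM at 0 h to 9.71 and 11.8 at 24 h in WT. In KO it fell from 33.4 and 35.0 to 13.1 and 14.4 TPM. *Hrk* also fell, and *Bbc3* overlapped between these times. The ratio of anti-apoptotic to BH3-only TPM was 3.45 to 3.61 at 0 h, 3.38 to 3.61 at 24 h and 4.76 to 5.25 at 48 h in WT. In KO it was 3.54 to 3.98, 3.09 to 3.25 and 3.68 to 3.88. The high WT values at 48 h held 71.5 and 145 TPM of Mcl1-202, and no test was made of these sums.

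The wider pathway is given by counts, which can be read against the shares of all genes called from 0 h to 48 h, 11.1% higher and 12.5% lower in WT and 12.1% and 12.8% in KO. Of 15 further family members 11 were tested, and 2 rose and 2 fell in WT while 3 rose and 1 fell in KO. *Bax*, the other main effector, was the highest of them at 343 to 423 TPM and was called in no comparison. *Bbc3*, encoding the p53-induced BH3-only protein Puma, rose by 0.67 in WT (adjusted p = 0.0166). *Hrk*, a BH3-only gene, fell by 1.56 in WT (adjusted p = 0.00222) and by 2.39 in KO (adjusted p = 3.38e-05), and *Bcl2l14* rose by 2.02 in KO (adjusted p = 0.00148). *Pmaip1*, encoding Noxa, the BH3-only partner of Mcl-1, fell by 1.53 from 0 h to 24 h in WT (adjusted p = 2.36e-07) and by 1.35 in KO (adjusted p = 8.28e-07). From 24 h to 48 h it rose by 0.94 in WT (adjusted p = 0.000217) and by 1.16 in KO (adjusted p = 1.37e-05), and at 48 h against 0 h its log2FC was -0.59 in WT (adjusted p = 0.00361) and -0.19 in KO (adjusted p = 0.366). Its levels were 49.5 and 57.3 CPM at 0 h, 16.7 and 20.3 at 24 h and 37.5 and 33.5 at 48 h in WT, and 58.3 and 60.8, 22.8 and 24.0, and 58.3 and 45.7 CPM in KO. It was the 1 gene of this list called between the genotypes over all times (0.35 higher in KO, adjusted p = 0.0134).

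Of 19 genes of the mitochondrial death pathway, all tested, 2 rose and 3 fell in WT and 3 rose and 1 fell in KO from 0 h to 48 h, beside the same shares of all genes. *Casp9*, the initiator caspase of the pathway, fell by 0.57 in WT (adjusted p = 0.02), and *Parp1*, a caspase substrate, fell by 0.20 in KO (adjusted p = 0.0285). Of 11 death receptor genes 10 were tested, with 0 higher (11.1% of all genes) and 3 lower (12.5%) in WT and 1 higher (12.1%) and 1 lower (12.8%) in KO. *Ripk3*, a kinase of necroptosis, fell by 1.03 in WT (adjusted p = 0.000308) and by 0.92 in KO (adjusted p = 0.000808), and *Tnfrsf10b*, a TRAIL receptor, rose by 0.44 in KO (adjusted p = 0.0402).

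Of 10 regulators of the family, all tested, 2 rose (11.1% of all genes) and 2 fell (12.5%) in WT and 2 rose (12.1%) and 3 fell (12.8%) in KO. *Foxo1*, a transcription factor that can activate *Bcl2l11*, rose by 0.69 in WT (adjusted p = 0.000107) and by 0.64 in KO (adjusted p = 0.000184). *E2f1* fell by 0.48 in WT (adjusted p = 0.00706), and *Usp9x*, encoding a deubiquitinase of Mcl-1, fell by 0.67 in KO (adjusted p = 0.00672). Over all times, 2 regulators were higher (2.19% of all genes) and 1 lower (2.84%) in KO, with *Cdkn1a*, a p53 target, higher by 0.45 (adjusted p = 0.0013) and *Foxo3* lower (log2FC -0.36, adjusted p = 0.00106). The median log2FC from 0 h to 48 h was 0.36 for the further family members, 0.11 for the mitochondrial pathway, -0.05 for the death receptor genes and -0.19 for the regulators in WT, beside 0.02 for all genes. In KO these medians were 0.31, 0.13, 0.38 and -0.04, beside 0.01 for all genes.

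The genes most like 3 of the members over the 12 libraries were found by Pearson correlation of log2 CPM with all 17423 other genes tested. The member of each class with the largest absolute log2FC from 0 h to 48 h in WT was used. *Bcl2l1* ran most closely with *Ykt6* (r = 0.97), *Pcif1* (0.94) and *Atxn7l3* (0.92). *Bok* ran with *Trib2* (0.97) and *Usp44* (0.97), and *Bik*, on its low counts, with *Dnajb14* (0.89), *Reps2* (0.87) and *Cmklr1* (0.87). These are descriptions, since the 12 points share the 6 groups, their depth and their libraries, and those named are the highest of 17423 coefficients for each gene.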

How the data were processed

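RNA from 12 libraries (WT and CIDEA KO at 0, 24 and 48 h, 2 each, described in the study as independent samples) was prepared with a stranded mRNA kit. Per the submitters' notes the authors used FastQC, Trimmomatic 0.33 and kallisto 0.43.1 with mm10/GRCm38. The transcript set was not given in the sources used here. The deposited tables hold estimated counts, which are not scaled, and TPM, which the authors' kallisto run scaled by effective length to the same total in every library. Of 115270 transcripts, 113580 (98.5%) matched GENCODE release M21 by identifier, and the others held 0.659% to 0.709% of counts and were left out.

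Both quantities were added up over the transcripts of each of 35580 genes, and the count sums were rounded. edgeR 4.0.16 (R 4.3.3) was used with TMM (factors 0.985 to 1.016), filterByExpr, robust quasi-likelihood fits and 1 mean per group over all libraries. The biological coefficient of variation was 0.311, and intervals cover 95% on the fitted scale. Median depth of the WT groups was 30.6 M at 0 h, 34.5 M at 24 h and 32.5 M at 48 h. For KO it was 29.0 M, 34.1 M and 33.9 M. Replicates differed by more than sampling noise (chi-square 11.1 to 32.5 per degree of freedom). p-values measure the spread between these pairs of libraries.

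The members, gene lists and tests were chosen with earlier results of these data known. All 10 members are named. From each further list the called genes with the largest rise and fall from 0 h to 48 h in each genotype and between the genotypes over all times are named, with *Cidea*, *Bax*, *Bbc3* and *Pmaip1*. Some genes that the rules for named and most alike genes pick are not reported here. Likeness used log2 CPM with a prior count of 2. Alternatives were DESeq2 1.42.0, its size factors in edgeR, other filters on low counts, average transcript lengths as offsets, only the groups compared, limma 3.58.1 on log2(TPM + 1) and log2(TPM + 0.1), a replicate block and leaving out each library. The fits were tested on simulated data with changes placed in genes that were not low in counts. There edgeR recovered 46.5% of 1.5-fold changes for KO against WT at 0 h and 67% over all times. For 48 h against 0 h in WT it recovered 36.5%. The change of the genotype difference was not simulated. Codons were read from GENCODE M21 transcripts and annotation. Protein sequences were not used here. Reads that fit several transcripts or near-identical genes are divided by kallisto, so such values are uncertain.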

Additional observations from a re-analysis of the deposited data

How the results depend on the processing

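Of the 25 called values of single members, 5 stayed called under all 21 alternatives run, namely the rise of *Bmf* from 0 h to 24 h in both genotypes and to 48 h in KO, that of *Bcl2l11* from 0 h to 48 h in KO and that of *Mcl1* from 0 h to 48 h in WT. Over all 25, 427 of 525 alternative values stayed called and 98 were not, with no change of direction. Among the 95 values not called, 125 alternative values changed sign and 15 passed the threshold.

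With average transcript lengths as offsets, the number of members called went from 1 to 0 for KO against WT at 0 h, from 3 to 1 at 24 h against 0 h and at 48 h against 24 h in WT, from 5 to 2 at 48 h against 0 h in WT, and from 4 to 1 at 24 h against 0 h and at 48 h against 24 h in KO. limma on log2(TPM + 1) and on log2(TPM + 0.1) each gave 0 for KO against WT at 0 h and 0 over all times, 1, 1 and 3 for these comparisons in WT, and 1, 1 and 2 in KO, where 48 h against 0 h had 4. Over all times, DESeq2 and a minimum of 10 counts in every library each called 2 members in place of 1, *Mcl1* being the second. When the fit held only the groups compared, 2 members were called at 24 h against 0 h and 0 at 48 h against 24 h in KO, in place of 4 each. *Mcl1* made up 67.2% of the members' CPM in place of 60.2% of their TPM.

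Leaving out 1 library at a time, the members called ranged from 0 to 1 for KO against WT at 0 h, 0 to 1 at 24 h, 0 to 0 at 48 h and 1 to 1 over all times. In WT they ranged from 1 to 3 at 24 h against 0 h, 0 to 3 at 48 h against 24 h and 3 to 5 at 48 h against 0 h, and in KO from 2 to 5, 0 to 4 and 3 to 5. For the change of the genotype difference they ranged from 0 to 1 at 24 h and 0 to 0 at 48 h, and the *Mcl1* share from 59.4% to 60.7%. A group left with 1 library was assumed to vary like the others. Calls over all genes also moved widely in these fits, so these ranges are not results about the members alone.

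With a replicate block the *Bmf* difference at 0 h was -0.72 (adjusted p = 0.00473), and no call of a member changed. Deviations from the group means were unrelated between libraries of the same number (correlations of 0.00328, 0.0508 and -0.00937 at 0, 24 and 48 h), so the numbers were not taken to pair samples.

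Genes called over the whole table ranged, across alternatives other than leaving out a library, from 17 to 386 for KO against WT at 0 h (main 220), 13 to 615 at 24 h (255), 19 to 303 at 48 h (117) and 178 to 1268 over all times (877). For 24 h against 0 h, 48 h against 24 h and 48 h against 0 h they ranged from 1319 to 3031 (2615), 412 to 2019 (1418) and 2500 to 4527 (4118) in WT and from 1617 to 3716 (3236), 735 to 2255 (1733) and 2513 to 6165 (4348) in KO. For the change of the genotype difference they ranged from 0 to 82 at 24 h (2) and 0 to 123 at 48 h (7). *Bcl2* had 4 to 52 and *Bik* 23 to 107 counts per library, and each group had 2 libraries, which limits the precision of every value.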
